A study of Mus musculus with 10 samples.

Results

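The calcineurin, NFAT and calcipressin genes of mouse muscle were read from RNA-seq data of the gastrocnemius, a calf muscle, of 5 homozygous desmin knock-out mice (Des -/-) and 5 wild-type mice (Des wt/wt). The 10 genes were listed by name, with earlier results of these data known. They are Ppp3ca, Ppp3cb and Ppp3r1 for calcineurin, Nfatc1, Nfatc2, Nfatc3 and Nfatc4 for the NFAT transcription factors, and Rcan1, Rcan2 and Rcan3 for the calcipressins. All 10 were found among the 54232 genes of the table and all 10 lay above the expression limit, as did 14289 genes in all. The strain label, which is the same for both genotypes, names B6J, 129Sv, the Des allele Destm1Cba and Cscl. The labels give the muscle as gastrocnemius, whereas the study's text also names the plantaris, a neighbouring calf muscle. The mice were littermates according to the methods and were 3 months old. The mutation is in the germ line, so desmin is lacking in every cell that would make it and not in muscle fibers alone. The methods describe pooled RNA, whereas the table gives 10 columns, 1 per mouse, which served as the replicates. The p-values measure the spread between these columns.

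Calcineurin is a phosphatase that is switched on by calcium and calmodulin. It consists of a catalytic A subunit and a calcium-binding B subunit, and it removes phosphates from NFAT proteins, which then enter the nucleus and activate genes. Calcipressins bind calcineurin and hold back its activity, and Rcan1 is itself a known target of NFAT. In skeletal muscle this pathway is known for its part in the slow fiber program and in the growth of regenerating fibers.

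Gene values are regularized log (rlog) values, that is, log2 values adjusted to library size and pulled in towards each gene's average, so the differences below are smaller than log2 fold changes of counts. The sequencing depth of each mouse is unknown from such values. Des, the targeted gene, ranged from 11.76 to 11.89 in knock-out and from 16.10 to 17.74 in wild-type muscle, so that no library went against its label. Muscle fiber markers (Acta1, Ckm, Ttn, Neb, Myh4 and Tnnt3) were all high in both genotypes, the lowest rlog mean being 17.47 for Neb in wild-type muscle. Wild-type mouse 3 stood apart, with a mean correlation of 0.982 to the other wild-type mice, compared with 0.989 to 0.997 of the other 9 mice within their genotype. Its value was the lowest of the wild-type mice for Ppp3ca and Ppp3r1 and the highest for Nfatc3, Rcan2 and Rcan3.

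Of the 10 genes, 2 rose in desmin knock-out muscle, Nfatc2 and Ppp3ca, and none fell at an adjusted p under 0.05 (limma, over all 14289 genes). Over all tested genes 13.7% passed, 7.7% higher and 5.99% lower. Before adjustment 5 of the 10 had a p under 0.05, namely Nfatc2, Ppp3ca, Ppp3r1 and Rcan1 with higher and Nfatc3 with a lower mean in knock-out muscle, compared with 27.6% of all tested genes. The median log2 difference of the 10 genes was -0.027, and that of all tested genes was -0.0029. None of the 10 lies on chromosome 1, the chromosome of Des.

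**Figure D1:**
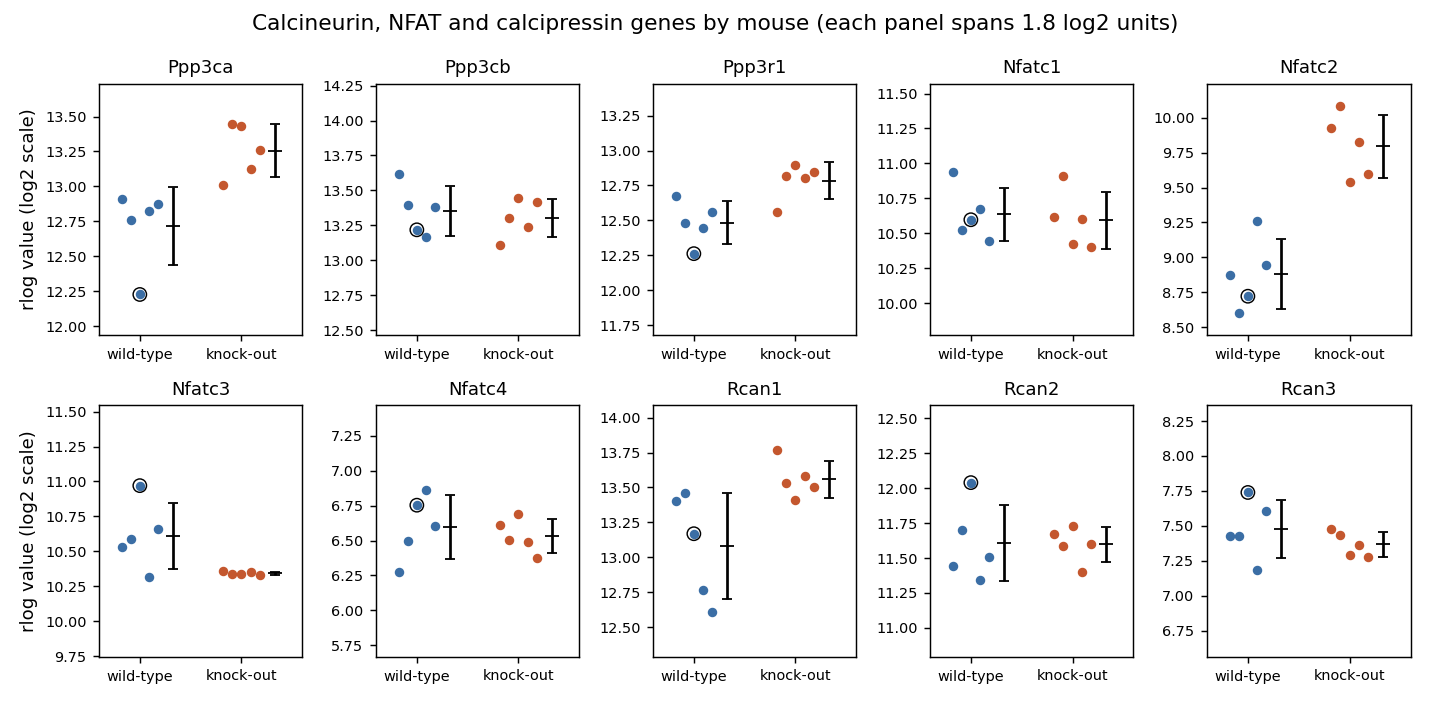
Values of the 10 genes in each mouse, as rlog values on a log2 scale, with wild-type mice in blue, desmin knock-out mice in orange, and the mean ± SD of 5 mice in black. Every panel spans the same height, and the open ring marks wild-type mouse 3. The genotypes do not overlap for Nfatc2 and Ppp3ca.

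The rise of Nfatc2 was the largest difference of the 10 genes. Nfatc2 (ENSMUSG00000027544, chromosome 2 of GRCm38, 168476410 to 168601657, reverse strand) encodes the family member known for its role in T cells and, in muscle, in the growth of multinucleated cells. Its value was 9.93, 10.08, 9.54, 9.83 and 9.59 in knock-out mice 1 to 5. In wild-type mice 1 to 5 it was 8.88, 8.60, 8.72, 9.26 and 8.95. Even the lowest knock-out mouse, mouse 3, exceeded wild-type mouse 4, the highest of its genotype, and such a lack of overlap was seen for 14.4% of all tested genes (7.45% with knock-out mice above and 6.97% below). The means were 9.79 ± 0.23 (SD, n = 5) and 8.88 ± 0.25 (SD, n = 5), so that Nfatc2 was higher by 0.91 log2 units (SE, standard error, 0.14, limma adjusted p = 0.000589) or 1.88-fold on the rlog scale. With 5 mice against 5 the smallest two-sided p of an exact permutation test is 0.00794, and Nfatc2 reached it. When single mice were omitted, the value for Nfatc2 remained within 0.84 and 1.01. The adjusted p stayed under 0.05 in all 18 alternatives, with 0.00326 as its highest value.

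Markers of other cells were read beside Nfatc2, since bulk muscle contains them and since fewer cells of a type cannot be told apart from less RNA per cell. Of 10 T cell markers, only Zap70 reached the expression limit, and it was higher in knock-out muscle (log2 difference 1.16, limma adjusted p = 0.000225). The other 9, among them Cd3e, Cd3d, Cd3g, Cd4 and Cd8a, had rlog values between -0.92 and 3.56. Their summed level on the log2 scale ranged from 4.43 to 4.60 in knock-out and from 4.50 to 4.69 in wild-type mice. Values this low are drawn in most towards the gene's average, so the direction of their means carries little weight. Of these 9, 7 had a higher mean in knock-out muscle. Cd3d had a lower one, and so had Cd2, the highest of the 9 in every mouse and the largest part of the sum. None of 10 macrophage markers passed in limma (0 with an unadjusted p under 0.05), and their summed level ranged from 11.27 to 11.74 in knock-out and from 11.24 to 11.63 in wild-type mice. Markers of regenerating fibers (Myh3, Myh8, Myog, Mymk and Mymx) moved with Nfatc2. All 5 rose (median 1.35 log2 units), compared with 7.7% higher over all tested genes. Their summed level ranged from 10.50 to 11.29 in knock-out and from 9.14 to 9.73 in wild-type mice. Of 8 fibroblast markers 4 were higher and none lower (7.7% and 5.99% over all tested genes), with a summed level of 13.94 to 14.54 in knock-out and 13.52 to 14.43 in wild-type mice. Of 8 endothelial markers, 4 were lower and none higher (against the same shares), with a summed level of 12.15 to 12.54 in knock-out and 12.49 to 12.80 in wild-type mice. The part of these cells in the rise of Nfatc2 was not tested.

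Among the other NFAT genes no difference passed. Nfatc3 (ENSMUSG00000031902, chromosome 8, 106058840 to 106130537) had 10.36, 10.33, 10.34, 10.35 and 10.33 in knock-out mice 1 to 5. The wild-type values were 10.53, 10.59, 10.97, 10.32 and 10.66. The knock-out values were nearly equal and 4 of the 5 wild-type values lay above them, with wild-type mouse 4 below. Knock-out minus wild-type gave -0.27 (SE 0.11, limma adjusted p = 0.12). Without wild-type mouse 4 it was -0.34 (limma adjusted p = 0.0359), and without wild-type mouse 3 it was -0.18 (limma adjusted p = 0.119). Nfatc1 (ENSMUSG00000033016, chromosome 18), which is known as a nerve activity sensor of slow fibers, had a mean of 10.64 ± 0.19 (SD, n = 5) in the wild-type mice, compared with 10.59 ± 0.20 (SD, n = 5) in the knock-out mice. Its log2 difference was -0.044 with a 95% interval from -0.30 to 0.21. Nfatc4 (ENSMUSG00000023411, chromosome 14, 55823144 to 55833943), the least abundant of the 10 genes per length, ranged from 6.37 to 6.69 in knock-out and from 6.27 to 6.86 in wild-type mice. The log2 difference of Nfatc4 was -0.063 with a 95% interval from -0.33 to 0.21. Nfat5, the relative that responds to osmotic stress without calcineurin, differed by 0.37 (SE 0.19, limma adjusted p = 0.241), and by 0.17 without wild-type mouse 3.

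**Figure D2:**
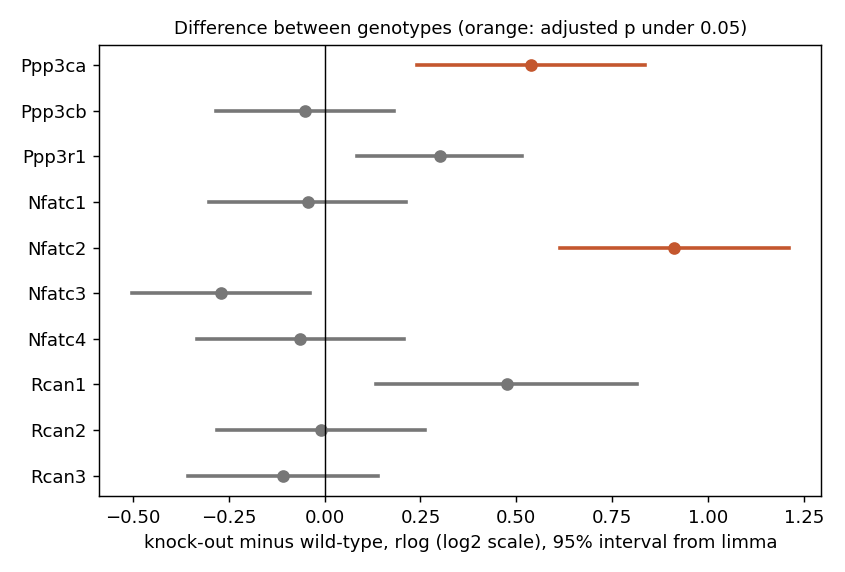
Log2 difference of each gene (knock-out minus wild-type, rlog scale) with its 95% interval from limma, with genes at an adjusted p under 0.05 in orange. The intervals of Nfatc2 (0.61 to 1.21) and Ppp3ca (0.24 to 0.84) lie farthest above 0, and those of Ppp3cb, Nfatc1, Nfatc4, Rcan2 and Rcan3 include 0.

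Of the calcineurin subunits, the catalytic subunit gene Ppp3ca rose and its paralog Ppp3cb did not pass. Ppp3ca (ENSMUSG00000028161, chromosome 3, 136670124 to 136937727) encodes the A alpha subunit. Its value was 13.01, 13.44, 13.43, 13.12 and 13.26 in knock-out mice 1 to 5. It was 12.91, 12.76, 12.23, 12.82 and 12.87 in wild-type mice 1 to 5. The lowest knock-out value, that of mouse 1, lay above the highest wild-type value, also that of mouse 1, and wild-type mouse 3 lay far below the rest. Knock-out minus wild-type gave 0.54 (SE 0.14, limma adjusted p = 0.0193), or 1.45-fold on the rlog scale, and the exact permutation test gave p = 0.00794. The call was lost without knock-out mouse 2 (0.49, limma adjusted p = 0.0602), without knock-out mouse 3 (0.49, limma adjusted p = 0.0558) and with no limit on expression (limma adjusted p = 0.055). Without wild-type mouse 3 the log2 difference was 0.42 (limma adjusted p = 0.00752).

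Ppp3cb (ENSMUSG00000021816, chromosome 14, 20499364 to 20546573), which encodes the A beta subunit, ranged from 13.11 to 13.45 in knock-out and from 13.16 to 13.62 in wild-type mice. The log2 difference was -0.052 with a 95% interval from -0.28 to 0.18. Ppp3r1 (ENSMUSG00000033953, chromosome 11, 17159263 to 17200375) encodes the B subunit that both catalytic subunits need. It had 12.56, 12.82, 12.90, 12.80 and 12.85 in knock-out mice and 12.67, 12.48, 12.26, 12.44 and 12.56 in wild-type mice. Apart from knock-out mouse 1, the knock-out values lay above every wild-type value. The log2 difference of 0.30 (standard error 0.10) missed the threshold with an adjusted p of 0.0652 (limma), and it passed without knock-out mouse 1 (0.36, limma adjusted p = 0.0425) or without wild-type mouse 1 (0.35, limma adjusted p = 0.0443). In all, Ppp3r1 passed in 4 of 18 alternatives, and with a mouse left out its adjusted p (limma) was up to 0.148. Ppp3cc, the remaining catalytic subunit gene, differed by -0.28 (SE 0.15, limma adjusted p = 0.243), and by -0.12 without wild-type mouse 3. Ppp3r2, the B subunit gene known from testis, was under the expression limit with a mean rlog value of -2.07 in knock-out and -2.06 in wild-type muscle.

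The ratio of 2 genes within a mouse is free of the scaling between libraries, and 4 such pairs were compared. The level of Ppp3ca relative to Ppp3cb was -0.099, 0.14, -0.015, -0.12 and -0.16 log2 units in knock-out mice 1 to 5. In wild-type mice 1 to 5 it was -0.71, -0.64, -0.99, -0.34 and -0.51. The groups did not overlap, and the mean moved from -0.64 ± 0.24 (SD, n = 5) to -0.049 ± 0.12 (SD, n = 5), a difference of 0.59 (exact permutation test, p = 0.00794, adjusted over the 4 pairs p = 0.0317). The level of Ppp3r1 relative to Ppp3ca was lower in knock-out muscle by a log2 difference of -0.24, with -0.47 ± 0.12 (SD, n = 5) against -0.23 ± 0.16 (SD, n = 5) and overlapping groups (exact permutation test, p = 0.0159, adjusted p = 0.0317). Both pairs kept their direction with every mouse left out, but the adjusted p was 0.0635 without knock-out mouse 1, 2, 3 or 5 or wild-type mouse 2, 3 or 5. With 4 mice against 5 the smallest unadjusted p is 0.0159. Ppp3ca is in both pairs, so they are not independent. Nfatc1 relative to Nfatc3 (difference 0.23, exact permutation test, p = 0.238, adjusted p = 0.238) and Rcan1 relative to Rcan2 (difference 0.49, exact permutation test, p = 0.0556, adjusted p = 0.0741) did not pass. Without wild-type mouse 1 the difference of Rcan1 relative to Rcan2 was 0.61 (exact permutation test, adjusted p = 0.0423).

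**Figure D3:**
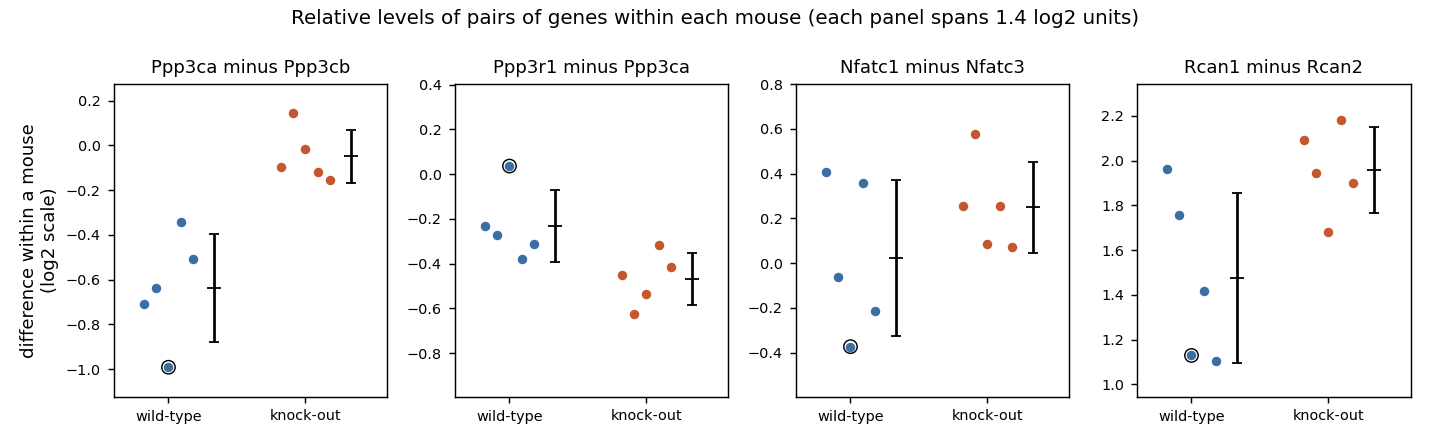
Difference between the rlog values of 2 genes in the same mouse, on a log2 scale, for 4 pairs, with wild-type mice in blue, desmin knock-out mice in orange, mean ± SD of 5 mice in black and a ring around wild-type mouse 3. The 5 knock-out mice lie between -0.16 and 0.14 for Ppp3ca minus Ppp3cb, above all wild-type mice, which lie between -0.99 and -0.34.

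Rcan1 is the calcipressin gene with a start that NFAT is known to activate. RefSeq (GRCm38.p6) places a pair of starts of Rcan1 66.1 kb apart on the reverse strand of chromosome 16, and the deposited value sums reads of all transcripts of the gene, so the starts cannot be told apart here. The 250 bases before each start are shown because they differ in the letters that NFAT recognizes, and those before the 2 starts of Nfatc2 are shown as the NFAT gene that rose. Capitals mark GGAAA, the core of NFAT binding sites, or its reverse complement TTTCC.
Rcan1, upstream start, chr16:92466170-92466419, reverse strand: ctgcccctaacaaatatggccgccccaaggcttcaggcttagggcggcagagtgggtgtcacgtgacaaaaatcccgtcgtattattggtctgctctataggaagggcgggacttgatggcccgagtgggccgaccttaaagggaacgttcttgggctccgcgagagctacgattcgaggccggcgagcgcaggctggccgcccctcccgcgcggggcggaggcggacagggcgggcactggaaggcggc
Rcan1, downstream start, chr16:92400079-92400328, reverse strand: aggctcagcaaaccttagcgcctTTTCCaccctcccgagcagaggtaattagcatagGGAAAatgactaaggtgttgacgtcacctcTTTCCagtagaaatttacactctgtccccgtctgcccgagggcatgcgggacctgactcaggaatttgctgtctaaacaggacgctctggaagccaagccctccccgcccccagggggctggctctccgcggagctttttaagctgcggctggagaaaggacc
Nfatc2, upstream start, chr2:168601658-168601907, reverse strand: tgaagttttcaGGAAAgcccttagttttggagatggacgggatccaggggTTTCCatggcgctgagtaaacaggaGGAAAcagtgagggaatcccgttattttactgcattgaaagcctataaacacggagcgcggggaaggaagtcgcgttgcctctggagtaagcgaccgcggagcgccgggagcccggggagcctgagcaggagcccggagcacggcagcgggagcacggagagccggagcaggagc
Nfatc2, downstream start, chr2:168590366-168590615, reverse strand: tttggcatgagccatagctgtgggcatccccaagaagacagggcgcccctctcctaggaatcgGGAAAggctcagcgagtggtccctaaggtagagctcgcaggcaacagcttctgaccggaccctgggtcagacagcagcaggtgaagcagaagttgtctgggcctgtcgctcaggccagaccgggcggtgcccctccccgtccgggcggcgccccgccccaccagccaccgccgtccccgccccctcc

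The window before the downstream Rcan1 start held 3 matches to GGAAA on either strand and that before the upstream start held 0. At Nfatc2 the upstream window held 3 and the downstream window 1. The windows of Ppp3cb and Nfatc4, whose differences did not pass, also held 3 each. Of the 32851 RefSeq promoter windows of this length, 55.6% held at least 1 match and 6.39% held 3 or more. Of the 10 genes, 8 had entries (not Ppp3ca and Nfatc1), with 13 windows in all, of which 8 held GGAAA. The E-box CANNTG was in 8 of the 13 windows and in 66.2% of all windows, and the MEF2 motif was in 0 of the 13 and in 3.2% of all. A match to these letters is a description and not a sign of binding.

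Rcan1 (ENSMUSG00000022951, chromosome 16, 92391953 to 92470867) had 13.77, 13.53, 13.41, 13.58 and 13.50 in knock-out mice 1 to 5. In wild-type mice 1 to 5 it had 13.41, 13.46, 13.17, 12.77 and 12.61. The knock-out values were close together, whereas the wild-type values were widely spread, with mice 1 and 2 near the knock-out level and mice 4 and 5 lowest. The log2 difference was 0.48 (standard error 0.16) with an adjusted p of 0.0644 (limma), and 4 of 5 knock-out values lay above all wild-type values (exact permutation test, p = 0.0159). It passed without wild-type mouse 1 (0.56, limma adjusted p = 0.0371), mouse 2 (0.57, limma adjusted p = 0.0327) or mouse 3 (0.50, limma adjusted p = 0.0481), and after quantile normalization (0.57, limma adjusted p = 0.0226). These were the only 4 of 18 alternatives in which Rcan1 passed. Without wild-type mouse 4 the difference was 0.40 (limma adjusted p = 0.132) and without wild-type mouse 5 it was 0.36 (limma adjusted p = 0.123).

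The other calcipressin genes showed no difference beyond the spread between mice. Rcan2 (ENSMUSG00000039601, chromosome 17, 43801351 to 44039516) ranged from 11.40 to 11.73 in knock-out and from 11.35 to 12.04 in wild-type mice, the highest being wild-type mouse 3. Its log2 difference was -0.0095 with a 95% interval from -0.28 to 0.26. Rcan3 (ENSMUSG00000059713, chromosome 4, 135412308 to 135433853) ranged from 7.28 to 7.48 in knock-out and from 7.19 to 7.74 in wild-type mice, with a log2 difference of -0.11 and a 95% interval from -0.36 to 0.14. The value was -0.044 without wild-type mouse 3 and -0.18 without wild-type mouse 4.

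Levels of different genes were compared per length, as the mean rlog value minus log2 of the length of all annotated exons in kb. In wild-type muscle the order on this scale was Rcan1 (11.46), Ppp3r1 (10.79), Ppp3cb (10.22), Rcan2 (9.48), Ppp3ca (9.40), Nfatc1 (7.73), Nfatc3 (7.06), Nfatc2 (5.48), Rcan3 (5.12) and Nfatc4 (4.06). The calcineurin subunits, Rcan1 and Rcan2 lay above every NFAT gene. Neighbours in this order overlapped between mice for Rcan2 and Ppp3ca, where Rcan2 was the higher in 2 of 5 mice, and for Nfatc2 and Rcan3, where Nfatc2 was the higher in 4 of 5. In desmin knock-out muscle Ppp3ca (9.94) stood above Rcan2 (9.47) in 5 of 5 mice, and Nfatc2 (6.39) stood above Rcan3 (5.01) without overlap. Ppp3cb (10.16) was above Ppp3ca in 5 of 5 knock-out mice although their ranges overlapped. Among the NFAT genes Nfatc1 was the most abundant per length in both genotypes. The gap between Nfatc3 and Nfatc2 was 1.58 log2 units in wild-type and 0.40 in knock-out muscle. The SD between mice was larger in wild-type than in knock-out muscle for 9 of the 10 genes, Nfatc1 being the exception, and for 82.9% of all tested genes.

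**Figure D4:**
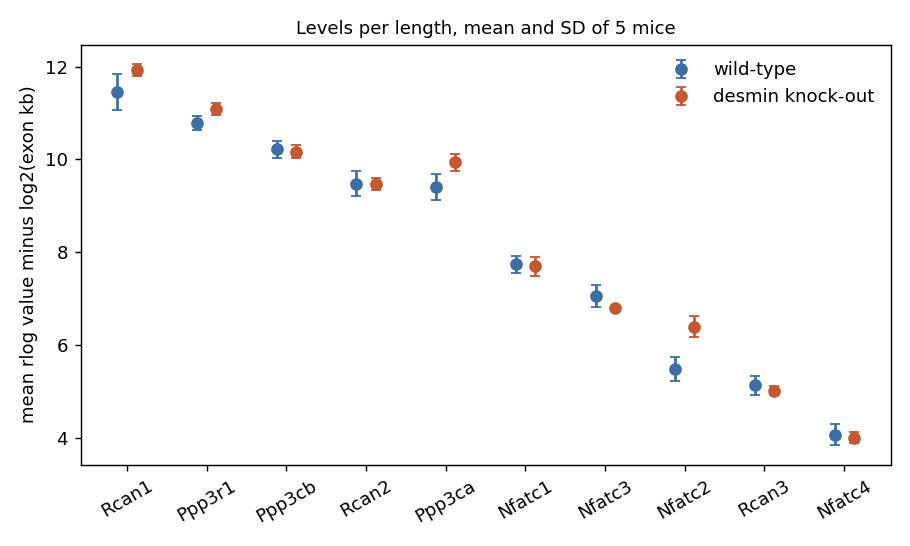
Mean rlog value minus log2 of the exon length in kb for each gene, ordered by the wild-type level, with bars for the SD of 5 mice, wild-type in blue and desmin knock-out in orange. Rcan1 is highest (11.46 in wild-type and 11.93 in knock-out muscle) and Nfatc4 lowest (4.06 in wild-type muscle).

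Several of the 10 genes share bases with other genes. Ppp3cb overlaps 1810062O18Rik on the opposite strand (rlog mean 3.76 in knock-out and 3.63 in wild-type muscle), Nfatc3 overlaps Esrp2 on the opposite strand (0.34 and 0.47), and Ppp3r1 overlaps Wdr92 on the same strand (8.81 in knock-out muscle). The libraries were made with a stranded kit, whereas the strand setting of the counting is not given in the sources used here. Each neighbour lay below the gene it overlaps.

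Around the 10 genes, lists of partners were read in the same fit. Calm2 and Calm3 encode calmodulin, the calcium sensor that activates calcineurin. Calm3 differed by -0.59 (SE 0.14, limma adjusted p = 0.0114), with wild-type mouse 3 (12.81) among the knock-out values. Calm2 differed by -0.18 (SE 0.11, limma adjusted p = 0.304), and by -0.098 without wild-type mouse 1.

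Among 13 tested genes for anchors and inhibitors of calcineurin and NFAT, 2 rose and none fell, with a median log2 difference of 0.026. That is a share near the 13.7% called over all tested genes. They were Homer2 (0.64, SE 0.15, limma adjusted p = 0.0128), a scaffold protein that binds NFAT, and Myoz2 (0.85, SE 0.22, limma adjusted p = 0.0188), the calsarcin of slow fibers that ties calcineurin to the Z-disk. For Myoz2, wild-type mouse 3 (14.08) lay among the knock-out values (13.80 to 14.11). With no limit on expression only Homer2 passed. The calsarcin genes of fast fibers, Myoz1 (-0.47) and Myoz3 (-0.43), named after their values were seen, did not pass. Of 11 kinases that can phosphorylate NFAT, 4 fell and none rose, with a median log2 difference of -0.22, where 5.99% of all tested genes fell. Those named by the rule were Mapk14 (p38 alpha) with -0.43 (SE 0.089, limma adjusted p = 0.00582), Csnk1e (casein kinase 1 epsilon) with -0.41 (SE 0.089, limma adjusted p = 0.00795) and Mapk9 (JNK2) with -0.37 (SE 0.084, limma adjusted p = 0.00911). For these 3 kinases the genotypes did not overlap, as for the 6.97% of all tested genes with knock-out mice below. The fourth, named after its value was seen, was Dyrk1b with -0.54 (limma adjusted p = 0.0431), a call that was lost in 10 of 18 alternatives, among them without any 1 of the knock-out mice and without wild-type mouse 2 or 4 (limma adjusted p up to 0.11). Both Gsk3b (0.17) and Dyrk1a (0.092), also named after their values were seen, did not pass. Wild-type mouse 3 was the lowest wild-type mouse for both, with 10.64 for Gsk3b and 11.21 for Dyrk1a. Gsk3a, named in the same way, did not pass either, although its knock-out values (11.18 to 11.47) lay below all wild-type values (11.63 to 12.49). Of the 11 kinases, called or not, 4 had a higher and 7 a lower mean in knock-out muscle.

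None of 7 genes for other calcineurin substrates (Mef2a, Mef2c, Mef2d, Crtc1, Crtc2, Crtc3 and Tfeb) passed in limma, with a median log2 difference of -0.13 and 2 genes with an unadjusted p under 0.05. Without wild-type mouse 1 the count was 1, Tfeb. None of 8 tested genes for calcium entry (among them Stim1, Stim2, Orai1 and Saraf) passed in limma, with a median of -0.018 and 0 genes with an unadjusted p under 0.05. Without wild-type mouse 3 the count was 1, Stim2. Over all tested genes 13.7% passed and 27.6% had an unadjusted p under 0.05 (limma), so lists this short would hold few called genes at that share.

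Genes of slow fibers, whose program calcineurin and NFAT are known to drive, and of fast fibers were counted in the same way. Of 11 slow fiber genes 3 rose and 1 fell, with a median log2 difference of 0.28, compared with 7.7% higher and 5.99% lower over all tested genes. The slow troponin T gene Tnnt1 (1.70, SE 0.20, limma adjusted p = 8.53e-05), the slow and cardiac calsequestrin gene Casq2 (1.01, SE 0.19, limma adjusted p = 0.00279) and the slow troponin I gene Tnni1 (0.91, SE 0.21, limma adjusted p = 0.0103) rose. For Tnni1, wild-type mouse 3 (11.34) lay among the knock-out values (11.24 to 11.81). The slow myosin light chain gene Myl3, named after its value was seen, fell from 12.39 in wild-type to 11.39 in knock-out muscle (limma adjusted p = 0.0143), a call that was lost with no limit on expression (limma adjusted p = 0.055). Of the 11 slow fiber genes, called or not, 9 had a higher and 2 a lower mean in knock-out muscle. The 2 were Myl3 and, named after its values were seen, the slow myosin heavy chain gene Myh7. Myh7 ranged from 10.48 to 12.50 in knock-out and from 10.78 to 11.81 in wild-type mice and did not pass. Of 11 fast fiber genes 3 fell and none rose, with a median log2 difference of -0.41, beside the same 5.99% lower. Called or not, 10 fast fiber genes had a lower mean and 1 a higher one, by 0.58, which did not pass. It was the fast myosin heavy chain gene Myh1, named after its values were seen, with 17.81 to 18.46 in knock-out mice. Wild-type mouse 3 (18.35) lay among these values, whereas the other wild-type mice had 17.07 to 17.70. The 3 fast fiber genes that fell are given next. They were Mybpc2 (-1.05, SE 0.19, limma adjusted p = 0.00258), Actn3 (-0.97, SE 0.25, limma adjusted p = 0.0196) and Myh4 (-0.71, SE 0.21, limma adjusted p = 0.036). Without knock-out mouse 4 or without knock-out mouse 5 the fast fiber count was 1, Mybpc2, and the call of Myh4 was lost in 12 of 18 alternatives, with an adjusted p (limma) of up to 0.161.

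**Figure D5:**
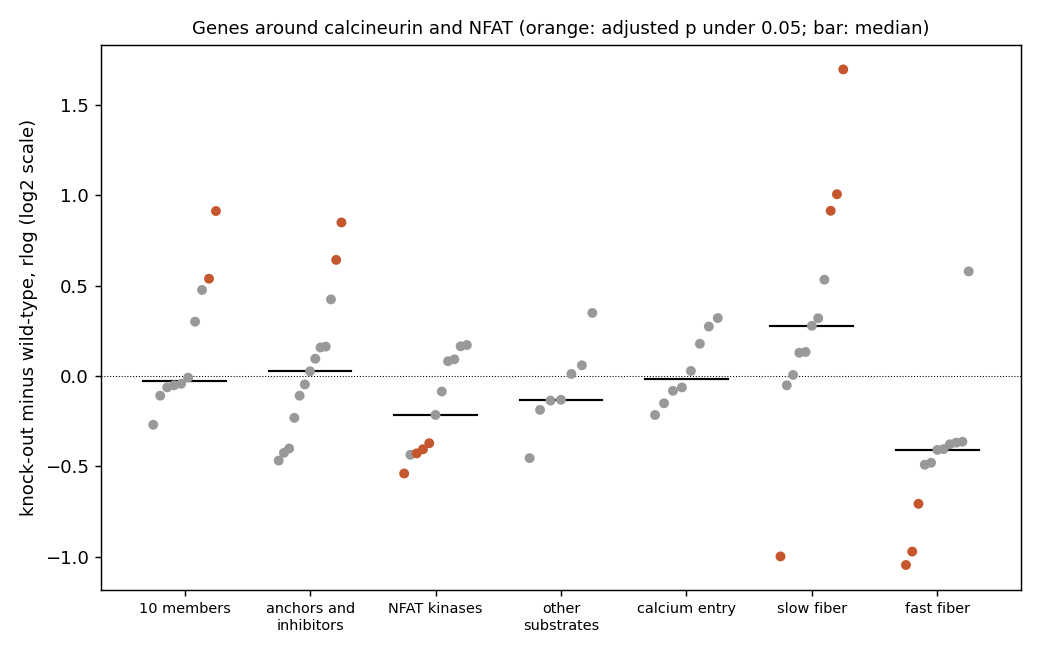
Log2 difference (knock-out minus wild-type, rlog scale) of the 10 genes and of each tested gene of the lists around them, 1 point a gene, with genes at an adjusted p under 0.05 in orange and the median of each plotted list as a bar. The plotted medians include -0.41 for fast fiber genes and 0.28 for slow fiber genes.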

How the data were processed

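RNA of the gastrocnemius of 5 desmin knock-out and 5 wild-type mice was sequenced. Per the labels, the authors trimmed reads with cutadapt 2.5, aligned them to GRCm38 with STAR 2.5.4a, counted them per gene with featureCounts (Subread 1.6.1) and made rlog values with DESeq2. The deposited values are on a log2 scale with shrinkage to the gene's average, so they hold no depth and count models were not applied. Values of low genes are drawn in most.

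Genes whose mean reached log2 of 10 were tested with limma 3.58.1 (R 4.3.3, eBayes with a trend) with genotype as the sole term and Benjamini-Hochberg adjustment over 14289 genes. Within-mouse ratios of 4 pairs and single genes were tested with exact two-sided permutation tests (scipy 1.17.1). Called means an adjusted p under 0.05. On simulated data the limma step was tested with planted changes. The 10 genes and the lists around them were chosen with earlier results of these data known. Genes named in the text were Des, the 10 genes, the rest of the family, Calm2, Calm3 and, from each other pathway list, up to 3 called genes of smallest adjusted p. Beyond that rule, further genes of these lists were named after their values were seen. These were Myoz1, Myoz3, Dyrk1b, Gsk3a, Gsk3b, Dyrk1a, Tfeb, Stim2, Myl3, Myh7 and Myh1. Marker genes were named where their list moved with a result. Some genes of the lists are not reported here. Exon lengths are unions of GENCODE M21 exons. Alternatives were limits on expression, normalization, prior variance, sample weights, a replicate block, Y-linked transcripts as a covariate and leaving out each mouse.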

Additional observations from a re-analysis of the deposited data

Results flagged for a closer look

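In 64 groups of 5 mice, 1 mouse lay far from the other 4 by Dixon's criterion in 9, where chance gives about 3.2. The groups share the same mice and are not independent, and wild-type mouse 3 was the distant mouse in 6 of the 9. Its values were 12.23 for Ppp3ca (12.76 to 12.91 in the other wild-type mice), 11.02 for Ppp3cc (10.13 to 10.26) and 12.81 for Calm3 (13.38 to 13.60). They were 17.74 for Des (16.10 to 16.55), 12.43 for Tnnt1 (11.14 to 11.50) and 19.34 for Actn3 (17.92 to 18.24). Knock-out mouse 1 had 12.56 for Ppp3r1 (12.80 to 12.90 in the other knock-out mice) and 10.85 for Nfat5 (10.59 to 10.67). Wild-type mouse 1 had 13.21 for Calm2 (12.74 to 12.85).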

How the results depend on the processing

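The rise of Nfatc2 passed in all 18 alternatives. Of the 10 genes, 1 was called with no limit on expression (Ppp3ca lost its call at 0.54), 4 after quantile normalization (Ppp3r1 0.36 and Rcan1 0.57 passed), 4 with sample weights (Ppp3r1 0.25 and Nfatc3 -0.23 passed) and 1 to 4 with a mouse left out. Sample weights, which gave wild-type mouse 3 a weight of 0.1, called 4220 of all genes, compared with 1956. Without wild-type mouse 3 2496 were called. With a mouse left out, the log2 difference was 0.42 to 0.60 for Ppp3ca, -0.099 to 0.014 for Ppp3cb, 0.24 to 0.36 for Ppp3r1, -0.12 to 0.032 for Nfatc1, -0.34 to -0.18 for Nfatc3, -0.14 to 0.0028 for Nfatc4, 0.36 to 0.57 for Rcan1, -0.075 to 0.099 for Rcan2 and -0.18 to -0.044 for Rcan3. Sample weights gave 0.034 for Nfat5 and -0.11 for Ppp3cc. With all mice kept, uncalled differences that changed sign were Ppp3cb after quantile normalization (0.039), Nfatc4 with sample weights (0.024) and with Y-linked transcripts as a covariate (0.057), and Rcan2 after quantile normalization (0.060) and with that covariate (0.078). With a mouse left out, the signs of Ppp3cb, Nfatc1, Nfatc4 and Rcan2 also changed, as the ranges above show. The causes were not tested.

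List counts moved to 1 for anchors and inhibitors with no limit, to 1 for other substrates with sample weights or the replicate block (0 to 1 with a mouse left out), to 3 for calcium entry with sample weights and 1 with the Y-linked covariate (0 to 1 with a mouse left out), to 7 for slow fiber genes with sample weights, and to 1 with no limit and 6 with sample weights for fast fiber genes (1 to 4 with a mouse left out). The difference of Ppp3ca relative to Ppp3cb was 0.50 to 0.66, that of Ppp3r1 relative to Ppp3ca -0.28 to -0.17 and that of Rcan1 relative to Rcan2 0.39 to 0.61 with a mouse left out.

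Replicate numbers showed no sign of pairing, as the correlations of same-numbered mice ranged from -0.219 to 0.0673. The sample titles only number the mice, and such correlations cannot exclude a pairing. With the replicate block 1579 genes were called and no call among the 10 genes changed. In the exact sign-flip permutation test of that pairing, Ppp3ca relative to Ppp3cb (0.59) had p = 0.0625, the smallest that 5 pairs allow, and Ppp3r1 relative to Ppp3ca (-0.24) had p = 0.125. Depth is unknown from these values, so no counting error could be given.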
